A study of Mus musculus with 21 samples.

Results

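Iron and heme handling was followed through 10 genes, taken by their symbols from a count table of 23420 gene symbols, and all 10 were present. They were Tfrc, Steap4, Slc11a1, Slc11a2, Fth1, Ftl1, Ncoa4, Hmox1, Blvrb and Slc40a1. RNA had been sequenced from inflammatory monocytes (IMs), which are CD11b+ Ly6G- Ly6C-high cells, sorted from mice in 5 groups of 21 libraries. Tumor inflammatory monocytes (TIMs) came from LN2E1 primary lung tumors (n = 5) and LN2E1 lymph node metastases (n = 5) of FVB mice and from lungs of DBA2 mice with LN4K1 metastases (n = 5), and bone marrow (BM) IMs came from naïve FVB mice (n = 3) and naïve DBA2 mice (n = 3). The study set each TIM group against the BM IMs of its own strain.

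LN2E1, also written KAL-LN2-E1, is a murine lung squamous carcinoma line obtained by in vivo passaging and was injected orthotopically into the lung at 500000 cells per mouse. LN4K1 is a metastatic line that was given intravenously at 300000 cells per mouse. Line, strain, cell number and route therefore differ together between the tumor models, and the lesion or organ sampled differs with them. No mouse with a tumor gave BM IMs and no naïve mouse gave lung IMs, so the presence of a tumor cannot be told apart from the tissue the cells came from. According to the study's methods, adults of both sexes were used, and libraries within a condition were called technical replicates. Nothing used here ties a library to an animal, so p-values measure the spread between libraries, which may be technical. In bulk samples like these, fewer cells of a type and less RNA per cell cannot be told apart.

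Iron enters most cells bound to transferrin through the transferrin receptor, is reduced in the endosome, passes into the cytosol through a divalent metal transporter, and is stored in ferritin or leaves through ferroportin. Macrophages also gain iron from heme, which heme oxygenase opens to biliverdin, carbon monoxide and iron. Iron regulatory proteins bind a hairpin called the iron-responsive element (IRE): in iron-poor cells they hold back translation from transcripts with the hairpin in the 5′ UTR and protect transcripts with the hairpin in the 3′ UTR from decay. Counts of RNA measure the transcript and not its translation.

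IREs were searched on the transcript strand of UTRs in the GENCODE vM21 annotation of GRCm38 (mm10), as a C, 5 bases, the letters CAGTGN and 5 bases able to pair with the first 5. At least 1 was present in 4 of the 10 genes, against 160 of 21901 protein-coding genes (0.731%). Elements with a bulge or mismatch in this stem would be missed, so a gene without a match was not shown to lack an IRE. Fth1, Ftl1 and Slc40a1 each had 1 in the 5′ UTR, and Tfrc had 4 in the 3′ UTR. The elements of the ferritin subunits and of the transferrin receptor are shown because they set these genes apart by UTR before any value is read. That of Slc40a1 is not shown, because only genes with a window around the transcript start, described below, were printed. Capitals mark the 6 letters of the loop motif, and the bases on either side form the stem.
Fth1 5′ UTR, chr19:9982732-9982760, plus strand: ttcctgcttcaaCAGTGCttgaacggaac
Ftl1 5′ UTR, chr7:45459779-45459807, minus strand: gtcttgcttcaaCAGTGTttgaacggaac
Tfrc 3′ UTR, chr16:32631219-32631247, plus strand: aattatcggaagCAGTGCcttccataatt
Tfrc 3′ UTR, chr16:32631598-32631626, plus strand: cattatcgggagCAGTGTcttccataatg
Tfrc 3′ UTR, chr16:32631663-32631691, plus strand: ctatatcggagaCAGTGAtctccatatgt
Tfrc 3′ UTR, chr16:32631710-32631738, plus strand: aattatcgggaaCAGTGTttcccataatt

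Libraries held between 80772922 and 101043568 counts, so a count of 0 allows up to 3 counts, or between 0.0268 and 0.0405 CPM, for counting error only. CPM are counts divided by the library total, on the usual scale of 1e6, and adjusted between libraries by TMM, and fold changes are on the log2 scale with their standard error (SE). Lymph node replicate 1 stood apart with the fewest genes at 10 or more counts (11047, against at most 14512 elsewhere), and LN4K1 lung replicate 3 had the fewest of its group (12015). Results that rest on either are given with and without it. All 5 monocyte markers checked (Ly6c2, Ccr2, Itgam, Csf1r and Ptprc) were present in every group, but their levels differed between TIMs and BM IMs in opposite directions. Ly6c2 had log2 fold changes of -1.30 in primary tumors, -1.17 in lymph nodes and -0.88 in LN4K1 lung (adjusted p of at most 0.00116 by edgeR's quasi-likelihood test). At an adjusted p under 0.05, Ptprc was higher in all 3, Itgam and Csf1r in both LN2E1 comparisons, and Ccr2 in primary tumors and LN4K1 lung. The summed level of 7 neutrophil precursor genes lay between 2811 and 4955 CPM in BM IMs and between 14.99 and 494 CPM in TIMs, and that of 8 cell cycle genes between 1351 and 1606 CPM and between 77.3 and 149.5 CPM. Sums of 9 tissue macrophage genes lay between 1385 and 2586 CPM in BM IMs and between 3068 and 6373 CPM in TIMs. Apoe made up much of that sum (mean of 4510.4 CPM in LN4K1 lung), while Vcam1 was lower in both LN2E1 comparisons and C1qc in LN4K1 lung. Sums of 7 epithelial genes lay between 82.3 and 667 CPM in primary tumors but were no more than 1.09 CPM in BM IMs. They lay between 0.901 and 4.97 CPM in lymph nodes and between 1.82 and 108 CPM in LN4K1 lung, where replicate 3 was the lowest. Sums of 6 fibroblast and endothelial genes lay between 3.95 and 13.4 CPM in BM IMs, between 218 and 586 CPM in primary tumors, between 55.6 and 124 CPM in lymph nodes and between 6.01 and 26.6 CPM in LN4K1 lung. The first 3 of these sums differed between TIMs and BM IMs in every comparison below, and their part in the results was not tested.

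In TIMs, transcripts of the ferritin heavy chain, of the phagosomal metal transporter Slc11a1 and of the metalloreductase Steap4 were higher than in BM IMs in all 3 comparisons, while the iron exporter Slc40a1 was lower in lymph node and LN4K1 lung TIMs. The ferritin light chain overlapped between TIMs and BM IMs and did not pass the test in any of the 3. A DEG had to reach, by edgeR's quasi-likelihood test, a Benjamini-Hochberg adjusted p below 0.0001 together with a log2 fold change beyond 1 in either direction. By this rule 3 of the 10 genes were DEGs in primary tumors, where 12.9% of all genes tested were, 3 were in lymph nodes, against 5.71%, and 0 were in LN4K1 lung, against 2.97%. In LN4K1 lung, 6 of the 10 had an unadjusted p under 0.05 by edgeR, against 37.0% of all genes, and DESeq2 called 3 DEGs, against 10.4%. At an adjusted p under 0.05, 4 genes passed in primary tumors (61.9% of all genes), 6 in lymph nodes (37.4%) and 5 in LN4K1 lung (24.9%). TIM and BM IM libraries did not overlap for 5 genes in primary tumors (58.1% of all genes), for 6 in lymph nodes (42.9%) and for 6 in LN4K1 lung (34.8%). The median log2 fold change of the 10 genes was 0.54 in primary tumors, against 0.08 over all genes tested, 0.51 against -0.04 in lymph nodes, and 0.38 against 0.03 in LN4K1 lung. The primary tumor and lymph node comparisons share the FVB BM IM libraries.

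**Figure D1:**
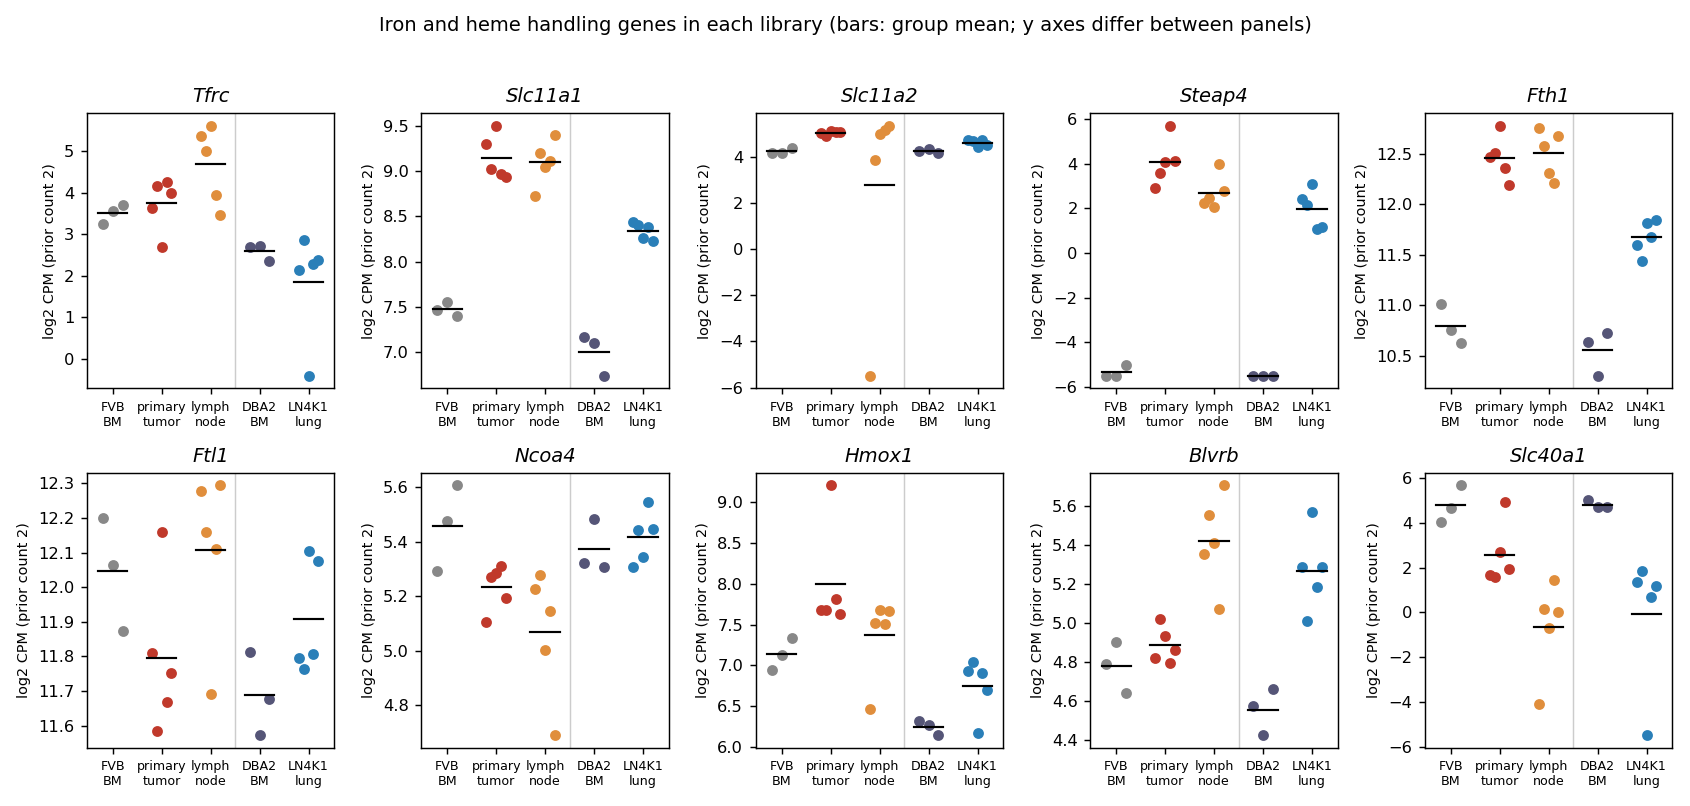
Level of each gene in every library as log2 CPM (prior count 2), 1 point per library and a bar at the group mean, for FVB BM IMs, LN2E1 primary tumor TIMs, LN2E1 lymph node TIMs, and then for the DBA2 BM IMs with the LN4K1 lung TIMs, with the 2 strains parted by a grey line. Fth1, Slc11a1 and Steap4 lie above the BM IMs of the same strain in all TIM libraries, and single libraries stand far from their group for Hmox1, Slc40a1, Slc11a2 and Tfrc.

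Tfrc (chr16:32608920-32632794) encodes transferrin receptor 1, through which transferrin-bound iron is taken up. Its level was 9.42, 11.8 and 13.03 CPM in FVB BM IMs, 12.3, 17.8, 6.46, 19.2 and 15.9 CPM in primary tumor TIMs and 41.1, 32.2, 48.8, 15.4 and 10.9 CPM in lymph node TIMs. Lymph node replicates 1, 2 and 3 lay above every primary tumor and BM library, and replicates 4 and 5 fell among them. In lymph nodes the log2 fold change was 1.38 (SE 0.47, adjusted p = 0.0438), and this call was lost in 6 of the 8 fits that left out 1 library (each FVB library and lymph node replicates 1, 2 and 3), with adjusted p from 0.0123 to 0.147 over the 8 fits. In primary tumors it was 0.30 (SE 0.31, adjusted p = 0.426). DBA2 BM IMs held 6.40, 6.50 and 5.09 CPM and LN4K1 lung TIMs 4.36, 7.27, 0.729, 4.84 and 5.14 CPM, a log2 difference of -0.50 (SE 0.54, adjusted p = 0.559). Replicate 3, the library with few detected genes, was the lowest, and without it the difference was -0.22 (adjusted p = 0.486).

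Steap4 (chr5:7960457-7982213) encodes a metalloreductase that reduces iron and copper for uptake. It had 0, 0 and 1 counts in FVB BM IMs and 0 counts in each DBA2 BM IM library, so these cells were at the limit of detection. Primary tumor TIMs held 7.52, 12.1, 16.7, 52.0 and 17.2 CPM. Lymph node TIMs held 4.75, 5.50, 4.18, 15.8 and 6.84 CPM and LN4K1 lung TIMs 5.30, 4.41, 8.45, 2.09 and 2.20 CPM. Every TIM library was thus far above every BM library, with replicate 4 the highest in both LN2E1 sites. In primary tumor replicate 4 the fibroblast and endothelial sum was 567 CPM, against 586 CPM in replicate 2. In lymph node replicate 4 it was 100.2 CPM, within the range of the other lymph node libraries. The sum of 7 mature neutrophil genes was 2298 CPM in primary tumor replicate 4, the highest of its group. That sum was 1153 CPM in lymph node replicate 4, within the range of its group, and lay between 2006 and 2486 CPM in FVB BM IMs. The part of either sum in the Steap4 level was not tested. Steap4 was a DEG in primary tumors (adjusted p = 3.2e-05) and in lymph nodes (adjusted p = 4.25e-05), and passed at an adjusted p of 0.000294 in LN4K1 lung. It was no longer a DEG in primary tumors with no filter on low counts, and with 1 library left out it was one in 5 of 8 fits there and in 1 of 8 in lymph nodes. Against the 1 count in FVB BM IMs, the ratio of pooled levels was 6308 in primary tumors, with an exact 95% interval for counting error from 1132 to 249170.0, and 2204 in lymph nodes, from 395 to 87086. The mean of LN4K1 lung TIMs was at least 142-fold above DBA2 BM IMs, and the lowest of these lung libraries at least 66.0-fold. Both bounds take 3 counts in the BM library where they weigh most. Fitted log2 values for this gene depend on the prior count and are no bound.

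Slc11a1 (chr1:74375195-74386062), also called Nramp1, moves divalent metals across the phagosome membrane of phagocytes. FVB BM IMs held 177, 187 and 169 CPM, primary tumor TIMs 629.8, 519.6, 725, 499 and 489 CPM, and lymph node TIMs 422, 589.6, 530.3, 554 and 677 CPM. The lowest TIM library was more than 2-fold above the highest BM library. Log2 fold changes were 1.67 (SE 0.15, adjusted p = 1.29e-05) in primary tumors and 1.64 (SE 0.15, adjusted p = 2.89e-05) in lymph nodes, both DEGs. In the DBA2 strain, BM IMs held 144, 137 and 107 CPM and LN4K1 lung TIMs 347, 338, 307, 334 and 299 CPM, again without overlap. That change was 1.26 (SE 0.13, adjusted p = 0.000128), just short of the DEG threshold, and it passed without replicate 3 of the lung libraries (adjusted p = 3.51e-05) and with no filter on low counts (9.74e-05).

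Slc11a2 (chr15:100387898-100425072), or DMT1, carries ferrous iron out of the endosome. It held 18.02, 17.7 and 21.1 CPM in FVB BM IMs and 32.7, 29.8, 34.2, 33.5 and 34.2 CPM in primary tumor TIMs. The primary tumor libraries were tightly grouped and all above the BM libraries, with a log2 fold change of 0.77 (SE 0.11, adjusted p = 0.000255). In the fit of all 5 groups together, which shares 1 estimate of the spread, the adjusted p was 0.449. Lymph node TIMs ranged from 0 CPM in replicate 1, through 14.5, 31.9 and 36.0, to 40.6 CPM in replicate 5. The 0 allows up to 0.0363 CPM, although BM IM libraries held at least 1586 counts. With it the log2 fold change was 0.37 (SE 1.17, adjusted p = 0.837), and without it 0.70 (adjusted p = 0.0981). LN4K1 lung TIMs held 26.8, 25.4, 21.2, 26.3 and 22.8 CPM, all above the 18.8, 20.1 and 17.9 CPM of DBA2 BM IMs, with a log2 fold change of 0.30 (SE 0.14, adjusted p = 0.156). Exons of Slc11a2 share 6.33% of their bases with Gm5475 on the opposite strand, whose reads cannot be told apart in libraries without strand.

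Fth1 (chr19:9980598-9985098) encodes the ferritin heavy chain, the subunit with ferroxidase activity. Its level was 2070.4, 1732 and 1577 CPM in FVB BM IMs. Primary tumor TIMs held 5662, 5814, 7009, 5248 and 4682 CPM, and lymph node TIMs 6885, 6082, 5067, 4732 and 6554 CPM. All 10 LN2E1 libraries were more than 2-fold above all 3 BM libraries, and those of the 2 sites overlapped. Fth1 rose by a log2 fold change of 1.65 (SE 0.15, adjusted p = 1.39e-05) in primary tumors and 1.71 (SE 0.16, adjusted p = 3.36e-05) in lymph nodes, both DEGs. In DBA2 mice, BM IMs held 1598, 1265 and 1691 CPM and LN4K1 lung TIMs 3104, 2776, 3598, 3276 and 3667 CPM, a rise of 1.03 (SE 0.14, adjusted p = 0.000631). 

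Ftl1 (chr7:45457944-45459884) encodes the ferritin light chain, which favours iron core formation. FVB BM IMs held 4706, 4278 and 3755 CPM, primary tumor TIMs 3591, 3069, 4574, 3255 and 3451 CPM, and lymph node TIMs 4964, 4569.9, 3309.8, 4418 and 5021 CPM. DBA2 BM IMs held 3599.7, 3045 and 3271 CPM and LN4K1 lung TIMs 3556, 3476, 4404, 3581 and 4317 CPM. TIM and BM libraries overlapped in each comparison. The log2 fold changes were -0.26 (SE 0.14, adjusted p = 0.125) in primary tumors, 0.07 (SE 0.15, adjusted p = 0.75) in lymph nodes and 0.15 (SE 0.12, adjusted p = 0.429) in LN4K1 lung. Ftl1 values carry doubt, since the annotation holds 2 pseudogenes named after it, neither in the count table, and 26.5% of its exon bases lie opposite the predicted gene Gm10252. Pseudogenes under other names were not searched for, either for Ftl1 or for the other genes.

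The ratio of Fth1 to Ftl1 counts within a library does not depend on scaling between libraries, and was computed after the values above had been seen. The doubt about Ftl1 values applies to this ratio too. It was 0.440, 0.405 and 0.420 in FVB BM IMs and 0.444, 0.415 and 0.517 in DBA2 BM IMs. The same ratio was 1.58, 1.89, 1.53, 1.61 and 1.36 in primary tumor TIMs, 1.39, 1.33, 1.53, 1.07 and 1.31 in lymph node TIMs, and 0.873, 0.799, 0.817, 0.915 and 0.849 in LN4K1 lung TIMs. Heavy chain counts thus exceeded light chain counts in each LN2E1 library and in no other. The ratio was 3.76-fold higher in primary tumors, 3.12-fold in lymph nodes and 1.86-fold in LN4K1 lung than in the matching BM IMs. Each of these differences had p = 0.0179 by a two-sided exact permutation test, the smallest that 5 libraries against 3 can give. Between DBA2 and FVB BM IMs the ratio overlapped (exact permutation p = 0.4, where 3 against 3 cannot go below 0.1).

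**Figure D2:**
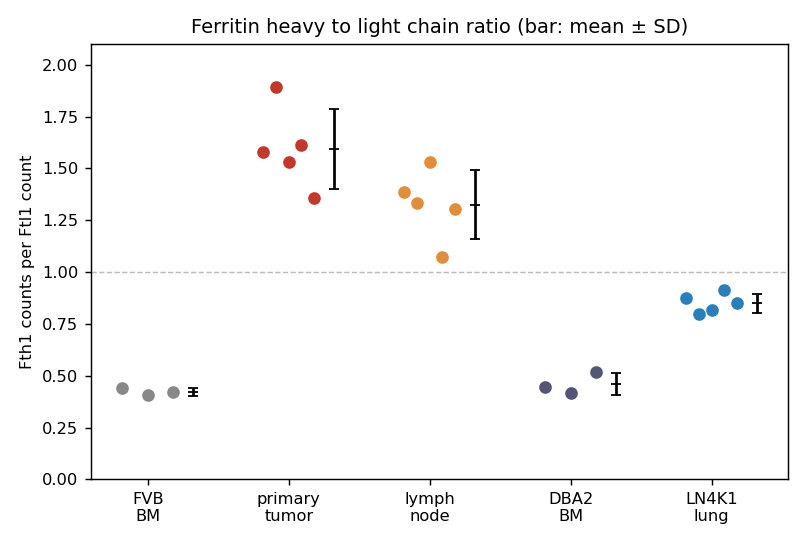
Counts of Fth1 per count of Ftl1 (y axis, a ratio from 0) in each library, 1 point per library, with the group mean and SD beside the points and a dashed line at equal counts. All 10 LN2E1 TIM libraries lie between 1.07 and 1.89, the LN4K1 lung TIM libraries between 0.799 and 0.915, and the 6 BM IM libraries between 0.405 and 0.517.

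Ncoa4 (chr14:32159865-32179855) encodes the receptor that brings ferritin to the autophagosome for breakdown. Its group means ran from 33.9 ± 5.19 CPM (SD, n = 5) in lymph node TIMs to 44.1 ± 4.80 CPM (SD, n = 3) in FVB BM IMs. Lymph node TIMs, at 37.4, 38.8, 32.04, 35.4 and 25.8 CPM, lay below all FVB BM IMs, at 39.1, 44.5 and 48.7 CPM, with a log2 difference of -0.38 (SE 0.17, adjusted p = 0.111). It was -0.25 (SE 0.11, adjusted p = 0.0646) in primary tumors and -0.03 (SE 0.11, adjusted p = 0.873) in LN4K1 lung.

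Hmox1 (chr8:75093621-75100589) encodes heme oxygenase 1, the inducible enzyme of heme breakdown. FVB BM IMs held 123, 139 and 162 CPM and primary tumor TIMs 204, 204, 589, 225 and 198 CPM, so that every tumor library was higher and replicate 3 stood far above the rest. The log2 fold change was 0.99 (SE 0.39, adjusted p = 0.0512). Without replicate 3 it was 0.53, with an adjusted p of 0.004. That library also had the highest sum of 7 NRF2 target genes (Nqo1, Gclm, Gclc, Srxn1, Txnrd1, Slc7a11 and Osgin1), 567 CPM against 325 to 448 CPM in the other primary tumor libraries and 125 to 138 CPM in FVB BM IMs, and, among primary tumor libraries, the highest sum of 6 hypoxia response genes, 1195 CPM. The part of either in the Hmox1 level was not tested. Lymph node TIMs held 88.7, 184, 205, 181 and 203 CPM. Replicate 1, the library with the fewest detected genes, was below the BM libraries and the other 4 were above, giving 0.28 (SE 0.25, adjusted p = 0.42) with it and 0.45 (adjusted p = 0.0189) without it. LN4K1 lung TIMs held 123, 132, 72.5, 120.2 and 104 CPM, against 79.9, 77.5 and 70.9 CPM in DBA2 BM IMs. There the change was 0.46 (SE 0.19, adjusted p = 0.113), and without replicate 3, the lowest, 0.58 (adjusted p = 0.00247).

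Blvrb (chr7:27447978-27466144) encodes biliverdin reductase B, which also reduces flavins. It held 27.7, 29.8 and 24.9 CPM in FVB BM IMs and 28.2, 32.4, 30.5, 27.7 and 29.0 CPM in primary tumor TIMs, which overlapped (log2 fold change 0.09, SE 0.10, adjusted p = 0.494). Lymph node TIMs, at 40.8, 46.8, 42.4, 33.5 and 52.1 CPM, were all above both. Blvrb rose there by 0.65 (SE 0.17, adjusted p = 0.0139). In LN4K1 lung TIMs it rose from 23.8, 21.4 and 25.3 CPM in DBA2 BM IMs to 39.0, 32.2, 47.5, 36.3 and 39.0 CPM, a log2 fold change of 0.64 (SE 0.15, adjusted p = 0.0116). These calls held in 6 of 8 and 7 of 8 fits that left out 1 library, without FVB replicate 1 or 3 reaching 0.0562 and 0.051 and without DBA2 replicate 2 reaching 0.0647.

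Slc40a1 (chr1:45908068-45926523) encodes ferroportin, the only known cellular exporter of iron. FVB BM IMs held 16.6, 25.3 and 51.4 CPM, a wide spread among BM libraries. Primary tumor TIMs held 3.19, 3.02, 6.56, 30.8 and 3.85 CPM. Only replicate 4 of these, which also had the most Steap4, reached the BM range, and the log2 difference was -1.74 (SE 0.79, adjusted p = 0.0818) with it and -2.93 (adjusted p = 0.000585) without it. Lymph node TIMs held 0.0363, 1.10, 0.594, 2.69 and 0.998 CPM, all below every BM and primary tumor library. The lowest was replicate 1, at 3 counts. Slc40a1 fell by 4.85 on the log2 scale (SE 0.89, adjusted p = 0.00207), and the change stayed between -5.52 and -4.27 when any 1 library was left out. LN4K1 lung TIMs held 2.57, 3.57, 0, 1.603 and 2.24 CPM, all below the 32.7, 26.6 and 26.2 CPM of DBA2 BM IMs, where it fell by 3.90 (SE 0.88, adjusted p = 0.0103). Without replicate 3, which held the 0, it was -3.58, and with an adjusted p of 6.73e-06 it met the DEG rule.

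**Figure D3:**
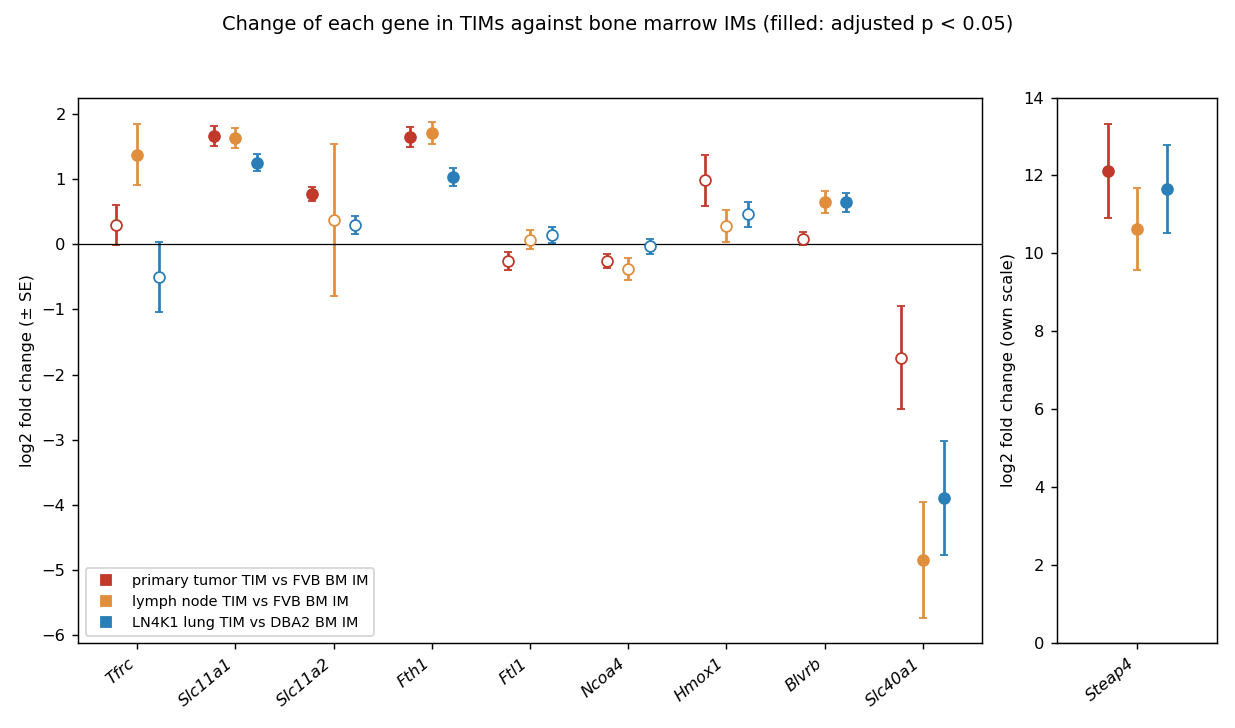
Log2 fold change of each gene in the 3 TIM groups against BM IMs of the same strain from edgeR (points) with its SE (bars), filled where the adjusted p was under 0.05, and Steap4 on an axis of its own because BM IMs held at most 1 count. Fth1 and Slc11a1 lie between 1.03 and 1.71 in all 3, Ftl1 near 0, and Slc40a1 between -4.85 and -1.74.

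Per kilobase of the principal transcript, which allows levels of different genes to be compared, Ftl1 was the highest of the 10 in FVB BM IMs at 4387 ± 492 CPM per kb (SD, n = 3), followed by Fth1 at 1930.0 ± 272. In primary tumor TIMs this order was turned, with Fth1 at 6117 ± 927 CPM per kb and Ftl1 at 3706 ± 605 (SD, n = 5). In LN4K1 lung TIMs they were at 3535 ± 394 and 3995 ± 469 CPM per kb, with Ftl1 the higher in every library. Hmox1 (90.2 ± 12.3) and Slc11a1 (76.9 ± 3.91) came next in FVB BM IMs, about 1 SD apart, followed by Blvrb at 26.7 ± 2.41 CPM per kb. Ncoa4 (13.2 ± 1.44), Slc40a1 (9.23 ± 5.36) and Slc11a2 (6.26 ± 0.609) were lower and Slc40a1 overlapped both neighbours. Tfrc was at 2.34 ± 0.376 CPM per kb. Slc40a1 was the lowest of the 10 in lymph node TIMs, at 0.321 ± 0.293 CPM per kb, where Steap4 was at 2.35 ± 1.51.

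Between the LN2E1 sites, 1 of the 10 genes passed an adjusted p of 0.05, against 11.7% of all genes. This was Blvrb, higher in lymph node than in primary tumor TIMs by 0.56 (SE 0.12, adjusted p = 0.0139), and it did not pass without primary tumor replicate 4 (adjusted p = 0.0531). Libraries did not overlap for 2 genes (14.4% of all genes), Blvrb and Slc40a1, each with an exact permutation p of 0.00794, the smallest that 5 against 5 can give. Slc40a1 was lower in lymph nodes by 3.12 on the log2 scale (SE 0.97, adjusted p = 0.0613), and by 1.94 (adjusted p = 0.228) without primary tumor replicate 4. Without lymph node replicate 1 or 4 its adjusted p was 0.041 and 0.0412. Tfrc differed by 1.06 (SE 0.42, adjusted p = 0.13), Steap4 by -1.50 (SE 0.54, adjusted p = 0.0975) and Fth1 by 0.05 (SE 0.13, adjusted p = 0.844).

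Among naïve animals, 3 of the 9 genes tested were lower in DBA2 than in FVB BM IMs at an adjusted p under 0.05 (21.1% of all genes passed in either direction), and Steap4 was too low to be tested. Hmox1 differed by -0.87 (SE 0.13, adjusted p = 0.00326), Tfrc by -0.91 (SE 0.21, adjusted p = 0.0203) and Slc11a1 by -0.44 (SE 0.12, adjusted p = 0.0374). In the fit of all 5 groups none of these passed, with adjusted p of 0.118 for Hmox1, 0.343 for Tfrc and 0.0768 for Slc11a1. Without FVB replicate 2, DBA2 replicate 2 or DBA2 replicate 3, only Hmox1 still passed. For these 3 genes and for Ftl1 the strains did not overlap (42.0% of all genes), and Ftl1 was lower in DBA2 by 0.34 (SE 0.11, adjusted p = 0.0658). The share without overlap was thus close to that over all genes. The baselines of the tumor models differed for Hmox1, Tfrc and Slc11a1 in the fit of the BM IMs alone, but not in that of all 5 groups.

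The change in LN2E1 primary tumors minus the change in LN4K1 lung was tested as an interaction, and 3 of the 10 genes passed an adjusted p of 0.05, against 26.5% of all genes. Fth1 rose more in primary tumors, by 0.63 (SE 0.20, adjusted p = 0.0279), and so did Slc11a2, by 0.50 (SE 0.17, adjusted p = 0.0375). Blvrb rose more in LN4K1 lung, the difference being -0.54 (SE 0.17, adjusted p = 0.0274). Slc11a1 differed by 0.43 (SE 0.19, adjusted p = 0.114), Hmox1 by 0.54 (SE 0.45, adjusted p = 0.404) and Slc40a1 by 2.17 (SE 1.28, adjusted p = 0.224). None of the 3 was called in every alternative: with no filter on low counts the adjusted p of Fth1 was 0.0618 and that of Slc11a2 0.0744, and in fits that left out 1 library Fth1 passed in 11 of 16, Slc11a2 in 6 of 16 and Blvrb in 13 of 16.

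Beyond the 10 genes, 61 genes in 6 lists of iron and heme metabolism were counted. At an adjusted p under 0.05, 14 of the 51 tested were higher and 17 lower in primary tumor TIMs (60.8% called, against 61.9% of all genes), 10 of 50 higher and 10 lower in lymph node TIMs (40% against 37.4%), and 14 of 53 higher and 3 lower in LN4K1 lung TIMs (32.1% against 24.9%). The shares in the LN2E1 comparisons were thus close to those over all genes. DEGs numbered 7 higher and 3 lower in primary tumors (19.6% against 12.9%), 5 and 1 in lymph nodes (12% against 5.71%), and 3 and 0 in LN4K1 lung (5.66% against 2.97%). Slc39a14 (ZIP14), a carrier of iron that is not bound to transferrin, rose in all 3 comparisons by 7.04 (SE 0.37), 5.87 (SE 0.38) and 4.62 (SE 0.26) on the log2 scale, with adjusted p of 6.33e-07, 2.8e-06 and 2.84e-06. Steap1 and Steap2, relatives of Steap4, were DEGs in primary tumors (adjusted p = 4.13e-05 and 2.72e-05). The median of the uptake list was 0.70 in primary tumors, against 0.08 over all genes. It was 0.12 against -0.04 in lymph nodes and 0.09 against 0.03 in LN4K1 lung. Of this list, 4 rose and 1 fell in primary tumors (55.6% called, against 61.9% of all genes). In lymph nodes 2 rose and 1 fell (37.5% against 37.4%), and in LN4K1 lung 4 rose and 0 fell (44.4% against 24.9%).

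Among genes that sense or release iron, Fbxl5, the ligase subunit that marks iron regulatory protein 2 for breakdown, rose by 2.32 (SE 0.12), 2.89 (SE 0.16) and 1.91 (SE 0.11) in primary tumors, lymph nodes and LN4K1 lung, a DEG in each. Hfe, whose product binds the transferrin receptor, was also a DEG in each, at 1.75 (SE 0.15), 2.39 (SE 0.24) and 1.74 (SE 0.12). Cp, ceruloplasmin, which oxidises iron on its way out of the cell, was a DEG in primary tumors at 6.47 (SE 0.75). Primary tumors, where Cp, Steap1 and Steap2 were DEGs and Slc39a14 had its largest change, were also where the fibroblast, endothelial and epithelial sums were highest, and the part of those cells in these changes was not tested. In the heme transport list, Lrp1, the receptor for hemopexin-bound heme among many other ligands, was a DEG in primary tumors at 2.02 (SE 0.17) and in lymph nodes at 2.25 (SE 0.25), and 4, 5 and 3 of the list's 11 tested genes passed an adjusted p of 0.05 in the 3 comparisons (36.4%, 45.5% and 27.3%, against 61.9%, 37.4% and 24.9% of all genes).

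Of 9 heme synthesis genes, 5 fell and 1 rose in primary tumors (66.7% called, against 61.9% of all genes), 4 fell and 0 rose in lymph nodes (44.4% against 37.4%), and 1 fell in LN4K1 lung (11.1% against 24.9%). The shares called in LN2E1 TIMs were thus close to those over all genes. Alad, the enzyme that makes porphobilinogen, fell by 1.52 (SE 0.17, adjusted p = 4.64e-05) in primary tumors as a DEG, by 1.88 in lymph nodes and by 1.29 in LN4K1 lung. The list's median log2 fold change was -0.61 in both LN2E1 comparisons and 0.06 in LN4K1 lung. Among genes of mitochondrial iron and iron-sulfur clusters, 6 of 10 fell and 2 rose in primary tumors (80% called, against 61.9% of all genes), with Cisd1, at a log2 fold change of -1.53 (SE 0.11), among the DEGs, while 2 fell and 2 rose in lymph nodes (40% against 37.4%) and 2 fell and 1 rose in LN4K1 lung (30% against 24.9%). The sum of 10 red blood cell genes lay between 59.9 and 213 CPM in FVB BM IMs and between 15.6 and 66.5 CPM in primary tumor TIMs. In either group, 6 of the 10 were above the limit of a 0. Lymph node TIMs, with 4 of the 10 above that limit, held 0.739, 24.0, 219, 1.40 and 0.249 CPM. Replicate 3 was above every FVB BM IM library and held the most Tfrc of its group, and replicate 1, at 0.739 CPM, the next most. In DBA2 mice the sum lay between 19.4 and 23.7 CPM in BM IMs and between 0.446 and 19.6 CPM in LN4K1 lung TIMs. Its part in the values of heme synthesis genes and of Tfrc was not tested.

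**Figure D4:**
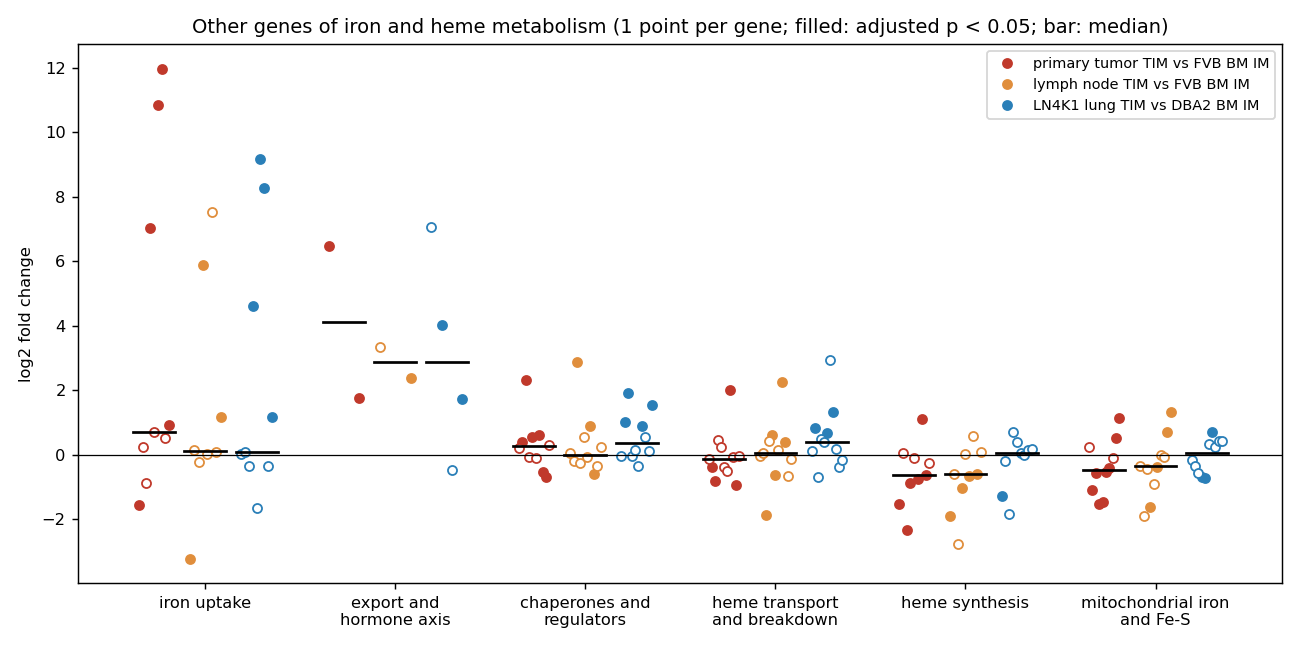
Log2 fold change of each tested gene in the 6 lists of iron and heme metabolism (x axis) for TIMs against BM IMs in primary tumors, lymph nodes and LN4K1 lung, 1 point per gene, filled where the adjusted p was under 0.05, with a bar at the median of the list. The heme synthesis medians lie at -0.61 in both LN2E1 comparisons and at 0.06 in LN4K1 lung.

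Short windows around the transcript start were at hand for 7 of the 10 genes, from RefSeq on GRCm38.p6. The letters TGACNNNGC, the core of the antioxidant response element bound by NRF2 and BACH1, were searched on both strands. They were found in 1 of 12 windows, one of Ncoa4, against 12.4% of all 32851 windows. Hmox1, Slc40a1 and Slc11a2 had no window and were not searched.

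As a description over the 21 libraries, with no test since the libraries fall into the groups above, the genes outside the 10 whose log2 CPM followed Hmox1 most closely among 8008 well-expressed genes were Map2k3 (Pearson r = 0.88), Gzf1 (0.86) and Gm6194 (0.86). For Slc40a1 they included Hdgfrp2 (0.91) and Rpn2 (0.90), and for Tfrc they were Pim2 (0.88), Cybasc3 (0.88) and Map4k5 (0.87).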

How the data were processed

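The deposited values were the authors' raw read counts for each gene symbol in 21 libraries. According to the study's methods and the submitters' processing notes, reads from a non-stranded SMARTer and Nextera XT library were trimmed with BBDuk, aligned to mm10 with BBMap, sorted with SAMtools 1.8 and counted on genes with featureCounts 1.5.2. The authors' counting settings are not given in the sources used here. Labels gave the groups, and all libraries entered. No 2 libraries were identical.

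From the counts, edgeR 4.0.16 in R 4.3.3 fitted every comparison over all genes, using just the libraries compared (TMM scaling, filterByExpr at a count of at least 10 and a total of at least 15, and the quasi-likelihood test with robust dispersions), and p-values were adjusted by Benjamini-Hochberg over the genes tested. The SE was taken as the absolute log2 fold change divided by the square root of F. TMM factors over all libraries scaled the CPM, with 2 as the prior count of their logarithm. Single values were compared by two-sided exact permutation tests, in R for the genes and in scipy 1.17.1 for the Fth1 to Ftl1 ratio. The DEG thresholds are those of the study. The alternatives tried were edgeR with the size factors of DESeq2, no filter beyond 1 count, DESeq2 1.42.0 with shrunken fold changes, 1 fit of all 5 groups, the replicate number as a block, and each library left out. Scripts were tested on simulated data. Levels per kb used the lowest-numbered APPRIS principal transcript of GENCODE vM21.

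The members and lists were chosen with earlier results of these data known. All 10 members were to be named. Of each list, the DEGs in at least 1 TIM comparison with the largest change were named, at most 3. The genes like Hmox1, Slc40a1 and Tfrc were the 3 with the highest r and a mean log2 CPM above 3. Some genes that these rules select are not reported here. Promoters of Hmox1, Slc40a1 and Slc11a2 and all proteins were not analysed here.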

Additional observations from a re-analysis of the deposited data

Results flagged for a closer look

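In 5 of the 30 groups of 5 libraries tested, 1 library lay farther from the rest than Dixon's 95% critical value allows, and chance gives about 1 in 20. Hmox1 was far above the other primary tumor TIMs in replicate 3 (588.6 CPM) and far below the other lymph node TIMs in replicate 1 (88.7 CPM). Slc40a1 was far above the other primary tumor TIMs in replicate 4 (30.8 CPM). Steap4 was highest in replicate 4 of the primary tumor TIMs (52.0 CPM) and in replicate 4 of the lymph node TIMs (15.8 CPM).

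The change from BM IMs differed between the tumor models by edgeR's interaction test for Fth1, by 0.63 on the log2 scale, and for Slc11a2, by 0.50, both larger in LN2E1 primary tumors, and for Blvrb, by -0.54, larger in LN4K1 lung. These were 3 of the 10 genes, where 26.5% of all genes passed. None of the 3 was called in every alternative tried. Line, strain, cell number, route and kind of lesion differ together between these models and cannot be told apart.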

How the results depend on the processing

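Over single members, the log2 fold change kept its direction with DESeq2, with its size factors and with no filter, and turned in 2 results in the fit of all 5 groups, in 3 with the block and in 12 of 554 fits with 1 library left out. The counts of DEGs depended most on the setting. With the replicate number as a block, 0 members were DEGs in primary tumors and 0 in lymph nodes, 3 passed an adjusted p of 0.05 in LN4K1 lung and 1 (Fth1) in the interaction, and the log2 fold change of Tfrc in primary tumors was -0.016, that of Slc11a2 in lymph nodes -1.41 and that of Slc40a1 between strains 0.048. Correlations of same-numbered libraries lay between -0.367 and 0.319, and none of the 10 pairs of groups had all of them above 0.1. Primary tumor and LN4K1 lung TIMs had 4 of 5 above it, each with its own number the best match. These values do not settle whether the numbers pair libraries, and a batch shared by number was not tested. In LN4K1 lung, 1 member was a DEG with no filter on low counts, and 3 were with DESeq2 and 3 in the fit of all 5 groups. In that fit Ncoa4 in LN4K1 lung was at 0.030 and Slc11a2 between strains at -0.00062, 0 members passed between strains, 2 between LN2E1 sites and 1 in the interaction. DESeq2 passed 3 members between LN2E1 sites, and 1 passed in the interaction with no filter. The cause was not tested.

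With 1 library left out, DEGs among the members numbered from 0 to 3 in each TIM comparison. At an adjusted p under 0.05, members numbered from 4 to 6 in primary tumors, 4 to 6 in lymph nodes, 4 to 7 in LN4K1 lung, 0 to 3 between LN2E1 sites, 1 to 4 between strains and 0 to 3 in the interaction. A fit with fewer libraries has less power, which bears on the threshold of 0.0001 most: in primary tumors Fth1 and Slc11a1 were DEGs in 7 of 8 such fits, and in lymph nodes in 3 of 8 and 2 of 8, and Steap4 in 5 of 8 and 1 of 8, while all 3 passed 0.05 in every one. With no filter on low counts Steap4 was not a DEG in primary tumors. Log2 fold changes that changed sign spanned -0.0046 to 0.16 for Ftl1 in lymph nodes, -0.065 to 0.025 for Ncoa4 in LN4K1 lung, -0.016 to 0.14 for Fth1 and -0.12 to 0.065 for Slc11a1 between LN2E1 sites, -0.42 to 0.48 for Slc40a1, -0.036 to 0.12 for Slc11a2 and -0.15 to 0.028 for Ncoa4 between strains, and -0.21 to 2.29 for Steap4 in the interaction. No scaling moved the median of all genes by over 0.1.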
